A study of Mus musculus with 2 samples.

Results

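The p21-high cells of the passage 20 culture were the 132 non-cycling cells with the largest share of *Cdkn1a* in their RNA. *Cdkn1a* encodes p21, an inhibitor of cyclin-dependent kinases (CDKs). They were taken from 4884 cell barcodes of 1 single-cell RNA-seq library. Of these barcodes, 4749 had more than 1000 genes and under 20% of their unique molecular identifiers (UMIs, 1 per captured RNA molecule) from mitochondrial genes. A cell was called non-cycling where it held 0 UMIs of the proliferation genes *Mki67* and *Top2a*, which left 1321 cells, 27.8% of those kept (95% Clopper-Pearson interval 26.5 to 29.1). The p21-high cells were the top 10% of these by *Cdkn1a* UMIs divided by the total UMIs of the cell, and made up 2.78% of the cells kept. They were compared with the other 1189 non-cycling cells. Since the cells were chosen by their measured *Cdkn1a* share and by the absence of *Mki67* and *Top2a* UMIs, the levels of these genes are given as a description. The whole series held 15513 barcodes, of which 14699 were kept.

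The study cultured primary pericytes (PCs), the mural cells that wrap brain capillaries, and profiled 1 library at passage 5 (PC5) and 1 at passage 20 (PC20). Each culture came from pooled brains of 6 female wild-type C57BL/6N mice aged 6 to 8 weeks, with no further treatment named. Per the study's methods the PC20 culture came from another isolation than the PC5 culture, although the series text speaks of 1, so that passage and isolation cannot be told apart. The PC20 library held 191306354 UMIs and the PC5 library 223978480 UMIs, and 20 barcodes occurred in both, none of them a p21-high PC20 cell. With 1 library per passage there was no replicate, cells are not replicates, and no p-value was computed. Intervals given with a level or a ratio are 95% intervals for counting error only.

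p21 binds cyclin-CDK complexes and holds cells before S phase. Its gene is a classic target of the transcription factor p53, which is stabilised by DNA damage and other stress and is kept low by the ubiquitin ligase MDM2, itself the product of a p53 target. Other inputs, such as TGF-beta signalling, can also raise p21. High p21 is known from transient arrest as well as from senescence, in which the inhibitors p16 and p15 (*Cdkn2a*, *Cdkn2b*) are also commonly raised.

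*Cdkn1a* lies on mouse chromosome 17 (GRCm38, chr17:29090976-29100727). The p53 response element, a pair of adjoining half-sites spanning 20 bases, was searched with at most 1 mismatch in the RefSeq promoter windows of GRCm38.p6, each running from 250 bases before to 50 bases after a gene start. The element reads alike on both strands. It was found in 29 of 32851 windows (0.0883%). *Cdkn1a* had 1, and 28 of the 36 other p53 targets listed for this comparison matched a window, of which *Ccng1* and *Rps27l* had 1 each. The 3 stretches are printed because they belong to the gene that chose the cells and to listed targets measured in them, with the element in capitals. Those of *Cdkn1a* and *Rps27l* lie on the plus strand and that of *Ccng1* on the minus strand, at chr17:29090888-29090987, chr9:66946256-66946355 and chr11:40755422-40755521.
Cdkn1a: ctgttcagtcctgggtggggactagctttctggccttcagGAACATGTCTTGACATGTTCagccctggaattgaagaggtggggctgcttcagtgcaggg
Ccng1: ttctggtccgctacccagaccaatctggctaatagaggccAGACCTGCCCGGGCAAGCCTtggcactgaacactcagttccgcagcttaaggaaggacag
Rps27l: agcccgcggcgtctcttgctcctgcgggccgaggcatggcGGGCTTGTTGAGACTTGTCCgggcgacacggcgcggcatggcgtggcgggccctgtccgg
A match is a stretch of letters and says nothing of binding in these cells, and a window without a match can belong to a gene with an element elsewhere.

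The p21-high cells held 2925 *Cdkn1a* UMIs, or 695 CPM (counts per 1000000 UMIs; 670 to 721), against 121 CPM (118 to 125) in the other non-cycling cells. Per cell they held 1 to 78 *Cdkn1a* UMIs with a median of 18.5, and 456 to 1963 CPM of the single cell with a median of 664. In the other non-cycling cells the median was 2 UMIs, and 375 of 1189 cells (31.5%) had none. At the edge of the choice, the last cell inside had 456.3 CPM and the next cell outside 454.7, so the *Cdkn1a* share was continuous across the limit. The 3428 PC20 cells with *Mki67* or *Top2a* UMIs had 205 CPM of *Cdkn1a*. They were not cut by *Cdkn1a* share, while the other non-cycling cells lacked their top 10%, so these levels are not ranked here. Of the 132 cells, 114 held 10 or more *Cdkn1a* UMIs. The other 18 had a median of 4415 UMIs in total, and a few molecules set their place.

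**Figure D1:**
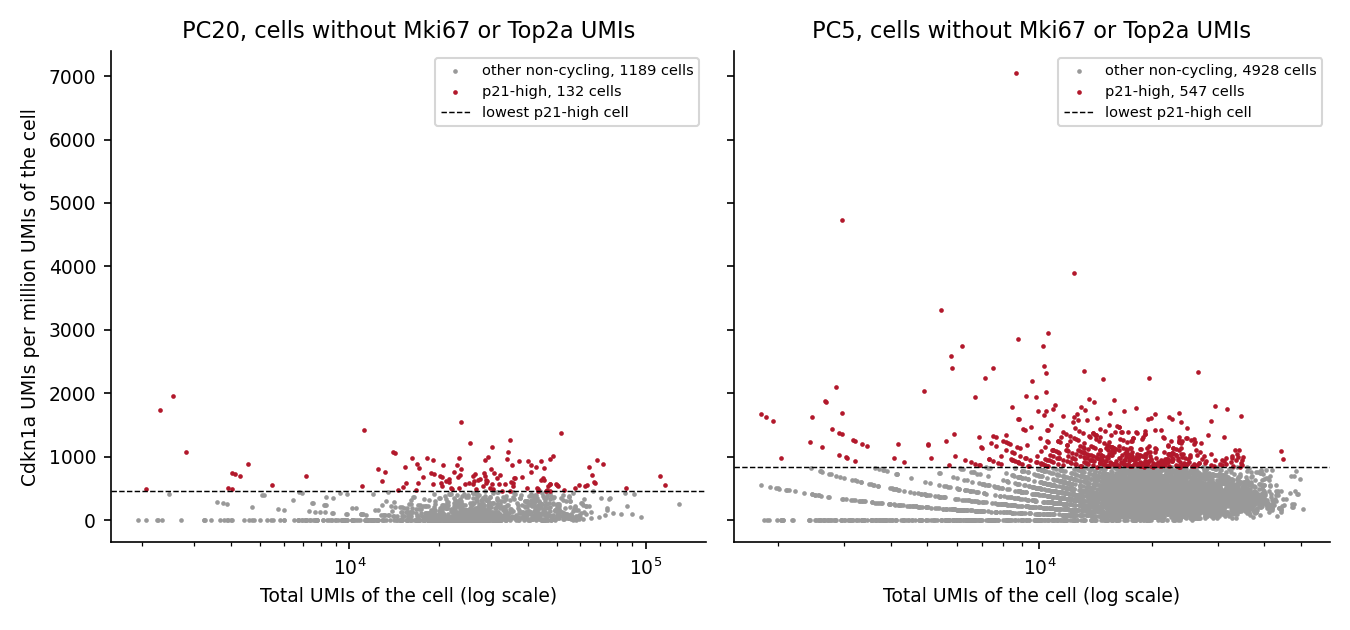
*Cdkn1a* level in CPM of a cell (vertical axis) against the total UMIs of the cell (horizontal axis, log scale) for every cell without *Mki67* or *Top2a* UMIs in PC20 (left) and PC5 (right). Red points are the top 10% by the *Cdkn1a* share, grey points the other cells, and the dashed line marks the lowest p21-high cell. The PC20 limit lies at 456 CPM and the PC5 limit at 842, with no gap at either.

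Median depth differed little. The p21-high cells had a median of 28737 UMIs (order-statistic interval 25546 to 31909; range 2054 to 116520) and 4882.5 genes per cell, against 25804 UMIs and 4637 genes in the other non-cycling cells. The spread was wider in the p21-high cells, with quartiles of 19265 and 42998 UMIs against 20215 and 33673. Mitochondrial genes gave a median of 1.72% of the UMIs against 2.02%, and ribosomal protein genes 31.1% against 32.4%. Under 0.5% mitochondrial UMIs were seen in 20 of 132 p21-high cells (15.2%, 9.51 to 22.4) and in 133 of 1189 others (11.2%, 9.45 to 13.1), intervals that overlap. To compare cells at 1 depth, each cell was also thinned to 11500 UMIs, which left out 14 p21-high and 114 other non-cycling cells as too shallow.

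Canonical pericyte markers were scarce in the p21-high cells, as in the rest of the library. The 8 markers summed to 16.9 CPM (13.2 to 21.3) against 12.5 CPM in the other non-cycling cells. *Pdgfrb*, the PDGF receptor of mural cells, was the most abundant at 7.13 CPM, and 4 of the 8 (*Rgs5*, *Abcc9*, *Kcnj8* and *Vtn*) had no UMI. Markers of other brain cells were scarce too, apart from single genes. The 5 endothelial markers summed to 0.238 CPM and the 5 microglial markers also to 0.238 CPM, with 4 of 5 at 0 in each list. The 4 neuronal markers summed to 3.80 CPM, all from *Tubb3*, and the 4 oligodendrocyte markers to 8.56 CPM against 5.50 CPM (log2 ratio 0.64, 0.08 to 1.16), mostly *Mbp*, with 2 at 0. The astrocyte list reached 246 CPM through *Slc4a4* alone, a bicarbonate cotransporter that had 237 CPM in the other non-cycling cells, and the fibroblast list 106 CPM through the collagen gene *Col3a1*, with *Pdgfra*, *Lum* and *Dcn* at 0. The part of these genes in the results was not tested, and the p21-high cells are named here by their *Cdkn1a* level alone.

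The comparison asked which genes went with p21 in cells called non-cycling. Genes were compared if their level reached 25 CPM, with 10% or more of the cells holding a UMI, in whichever group was higher, and were counted as higher or lower at 1.5-fold or more. Of 4747 genes compared, 169 were higher (3.56%) and 81 lower (1.71%), with a median log2 ratio of -0.003. Where genes were instead taken at 25 CPM over all non-cycling PC20 cells, 102 of 4477 were higher and 79 lower. That level is set mostly by the more numerous other cells, so it drops genes high only in the p21-high cells more readily than genes high only in the others. Without the p21-high cell and the other cell that held the most UMIs of each gene, 51 of the 169 fell under 1.5-fold. This left 118 higher genes beside 117 lower ones. Taking 1 cell from 132 removes a larger share of a gene's UMIs than 1 from 1189, which in itself tends to lower the ratios. The 51 therefore do not show how many calls rested on single cells.

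Of the 36 listed p53 targets other than *Cdkn1a*, most of those that could be compared were higher in the p21-high cells. All 36 were detected in both groups, 28 could be compared, and 18 of these were higher and 0 lower, where 3.56% of all compared genes were higher. Over all 36 targets the log2 ratio had a median of 0.81, and its interval lay above 0 for 29 targets and below 0 for 1. *Gadd45a*, a known p53 target placed in another list, is not among the 36 and was lower, short of 1.5-fold. At 25 CPM over all non-cycling cells, 14 of 24 targets were higher and 0 lower. Summed, the targets had 4727 CPM (4662 to 4793) against 3141 CPM (3122 to 3160), a log2 ratio of 0.59 (0.57 to 0.61). The cycling cells of the library, which were not cut by *Cdkn1a* share, had 3415 CPM. The list's most abundant gene, *Rps27l*, is a ribosomal protein paralogue and had a log2 ratio of 0.38 (0.34 to 0.42), so the sum understates its other members.

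The p53 targets included genes that act back on p53, of which *Mdm2* had a larger ratio than *Ccng1* and *Zmat3*. *Mdm2*, the ligase that degrades p53, had 0 to 143 UMIs per p21-high cell with a median of 7, against 0 to 58 with a median of 2 in the other non-cycling cells. Its level was 297 CPM (281 to 314) against 103 CPM (99.2 to 106), a log2 ratio of 1.53 (1.44 to 1.63), and of 1.37 without 1 cell that held 143 of the 1250 UMIs. The ranges overlapped, and 122 of 132 p21-high cells held an *Mdm2* UMI against 944 of 1189 others. *Ccng1*, the cyclin G1 gene, had a median of 6.5 UMIs per p21-high cell against 2, and 254 CPM against 135 CPM. *Zmat3*, a zinc finger protein gene, had 81.3 CPM against 50.1 CPM. *Trp53* itself, the gene of p53, had 89.9 CPM against 85.7 CPM, a log2 ratio of 0.07 with an interval of -0.09 to 0.22, so its RNA did not differ beyond counting error.

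Targets with antiproliferative or signalling roles followed. *Btg2*, an antiproliferative gene, had a median of 4 UMIs per p21-high cell against 1, and 173 CPM against 67.6 CPM, a log2 ratio of 1.35 (1.23 to 1.47). *Phlda3*, an inhibitor of AKT, had a median of 8 UMIs against 3, and 295 CPM against 135 CPM. *Trp53inp1*, a p53-induced nuclear protein gene, had the largest ratio of the compared targets, but entered the comparison through the p21-high cells alone. Its level was 62.3 CPM against 17.6 CPM, a log2 ratio of 1.82 (1.60 to 2.03), and 22.6 CPM over all non-cycling cells. It was seen in 88 of 132 p21-high cells and in 353 of 1189 others, and in thinned cells in 46.6% against 16.1%. Free RNA in droplets can add UMIs to any cell, and its part in such shares was not tested. *Ddit4l*, an inhibitor of mTOR signalling, had 30.7 CPM against 13.5 CPM, and *Ak1*, an adenylate kinase gene, 72.3 CPM against 31.7 CPM. Like *Trp53inp1*, *Ddit4l* reached 25 CPM only in the p21-high cells and entered the comparison through them alone.

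DNA repair and cell death targets differed among themselves. The repair endonuclease gene *Ercc5* had a log2 ratio of 1.20 (1.01 to 1.39) and the translesion polymerase gene *Polk* 0.87 (0.64 to 1.09). *Rrm2b*, which supplies nucleotides for repair, was the 1 listed target with its interval below 0, and did not reach 1.5-fold. It had 21.9 CPM against 31.2 CPM, a log2 ratio of -0.51 (-0.84 to -0.20). *Gadd45a*, a known p53 target placed in another list, was also lower with its interval below 0, short of 1.5-fold. Of the death genes, *Bbc3* (PUMA) had 57.3 CPM against 30.6 CPM, *Perp* 69.2 CPM against 33.9 CPM, and the death receptor gene *Tnfrsf10b* 34.2 CPM against 19.4 CPM. *Tnfrsf10b* reached 25 CPM only in the p21-high cells and so entered the comparison through them alone. *Bax*, the mitochondrial effector of the death genes, was closer between the groups at 592 CPM against 488 CPM, a log2 ratio of 0.28 (0.22 to 0.34). *Gdf15*, a secreted stress cytokine gene, had 419.5 CPM against 281 CPM, a log2 ratio of 0.58 (0.51 to 0.65) that did not reach 1.5-fold. With cells called non-cycling by 8 genes in place of 2 its ratio turned to -0.17, so it gave no stable direction. *Plk2*, a polo-like kinase gene, did not differ beyond counting error at 214 CPM against 218 CPM.

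**Figure D2:**
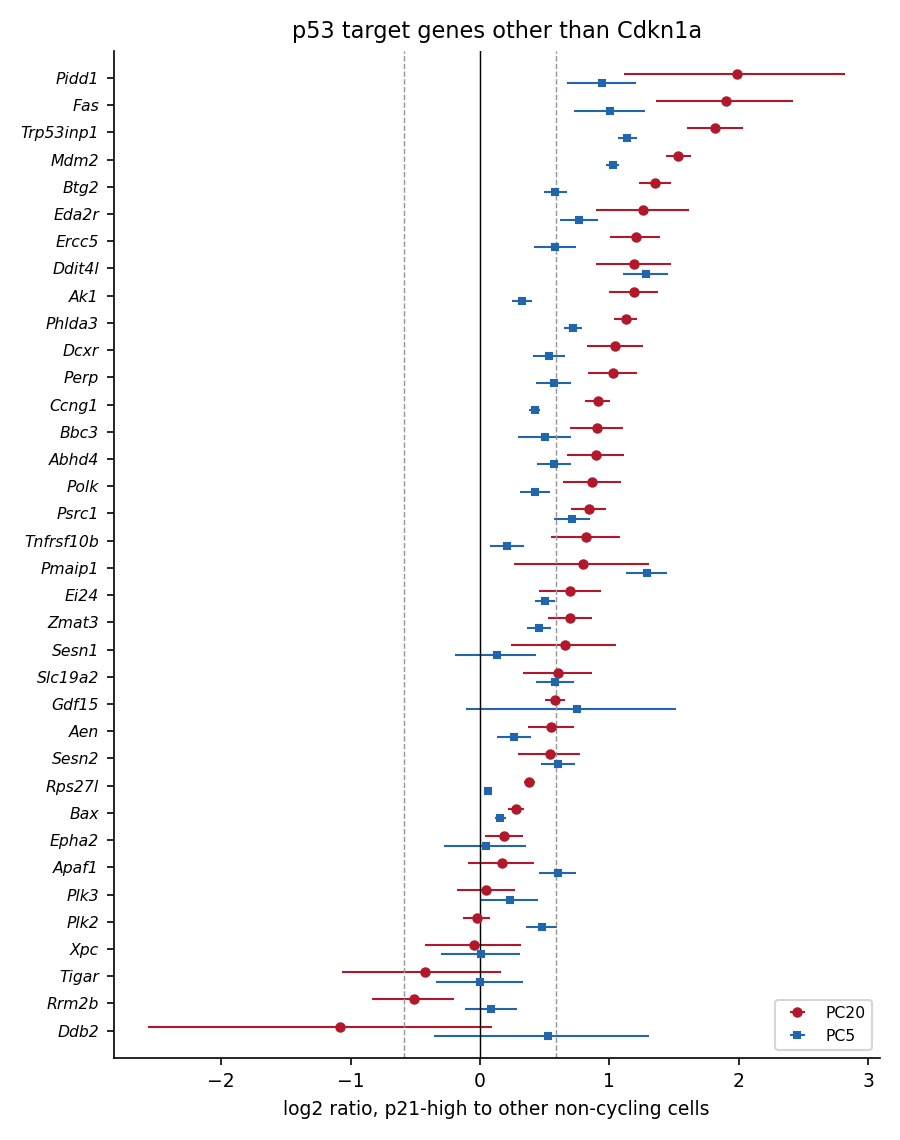
Log2 ratio of p21-high to other non-cycling cells (horizontal axis) for the 36 p53 targets other than *Cdkn1a* (vertical axis, ordered by PC20), in PC20 (red circles) and PC5 (blue squares). Bars are 95% intervals for counting error and the dashed lines mark 1.5-fold. In PC20, 29 of the 36 intervals lie above 0, and the same number do in PC5.

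The p53 signal was spread over the p21-high cells. At 11500 UMIs per cell, the 36 targets gave 14 to 140 UMIs per p21-high cell with a median of 54, against 10 to 115 with a median of 33 in the other non-cycling cells. Of 118 p21-high cells deep enough, 109 (92.4%) lay above that median of 33, and 65 (55.1%) lay above 51 UMIs, the 90th percentile of the other cells. The groups overlapped, and 9 p21-high cells had no more p53 target UMIs than the middle of the contrast. The log2 ratio of the list was 0.57 in the 66 p21-high cells above their median depth and 0.65 in the 66 at or below it. It was 0.43 (0.31 to 0.55) in the 18 cells with fewer than 10 *Cdkn1a* UMIs, and 0.58 (0.56 to 0.60) where cells under 0.5% mitochondrial UMIs were left out of both groups.

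The non-cycling cells were also cut into 10 parts by their *Cdkn1a* share, the p21-high cells being the highest. The p53 targets had 2633 CPM in the lowest part and between 2589 and 2721 CPM in the next 3, then 2962, 3164, 3328, 3732, 3981 and 4727 CPM in the p21-high cells. *Mdm2* had 65.4 CPM in the lowest part, 182 CPM in the ninth and 297 CPM in the p21-high cells. In the 3 lowest parts nearly every cell was at 0 for *Cdkn1a* (132, 132 and 111 cells), so that their order carries no *Cdkn1a* difference. The p53 targets were thus graded with *Cdkn1a* above that floor, and the p21-high cells were the end of a slope. The S phase genes ran the other way, from 775 CPM in the lowest part to 447 CPM in the p21-high cells. Median depth also differed between the parts, from 20980.5 UMIs in the second lowest to 31381 in the ninth and 28737 in the p21-high cells. These parts share 1 library and 1 choice of cells, and were not tested.

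**Figure D3:**
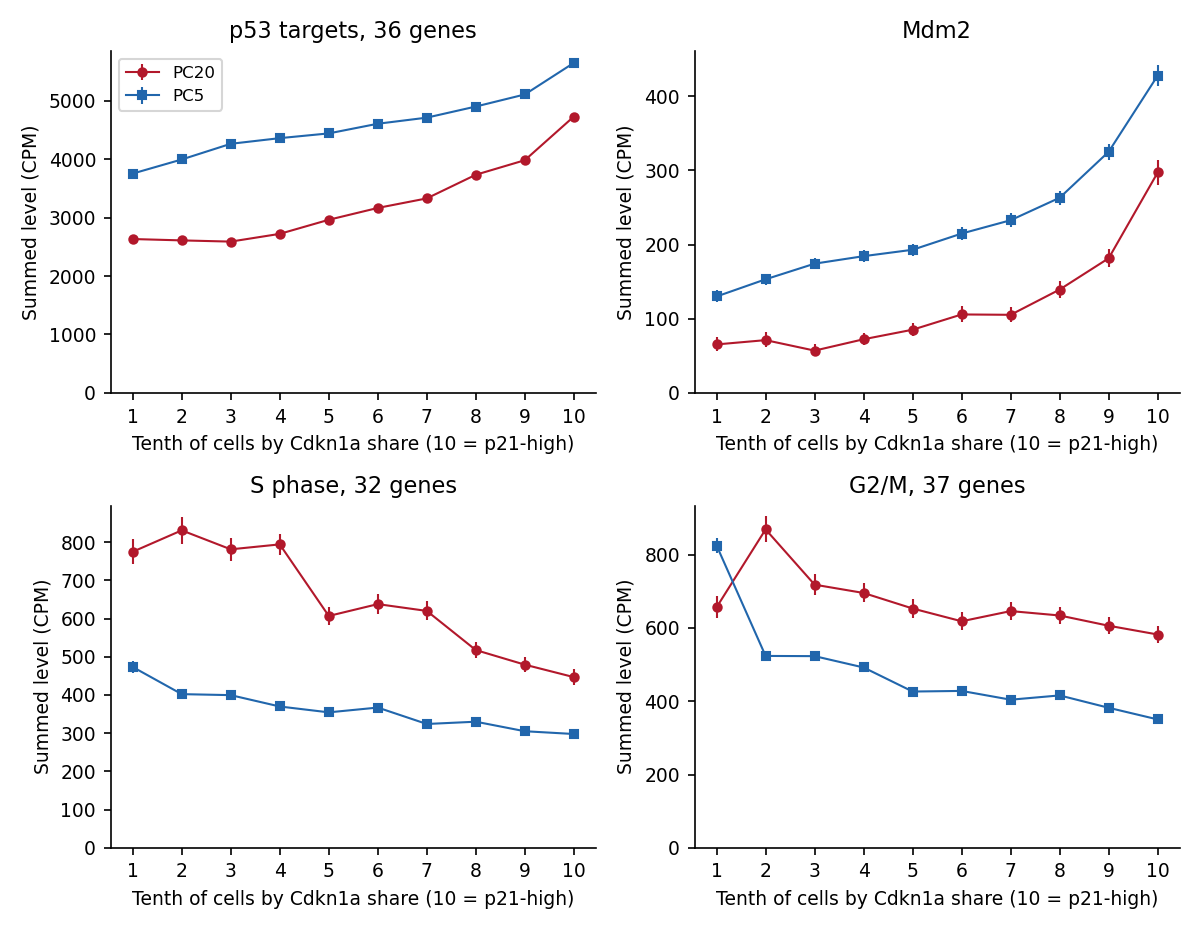
Summed level in CPM (vertical axes, from 0) of the p53 targets, *Mdm2*, the S phase list and the G2/M list in 10 parts of the non-cycling cells ordered by their *Cdkn1a* share (horizontal axes, 10 being the p21-high cells), in PC20 (red) and PC5 (blue). Bars are 95% Poisson intervals. The p53 targets reach 4727 CPM in PC20 and 5645 CPM in PC5 in the p21-high cells, and the S phase list 447 and 298 CPM.

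CDK inhibitors other than p21 were at 0 or not past 1.5-fold in PC20. *Cdkn2a* and *Cdkn2b*, the genes of p16 and p15, had no UMI in either non-cycling group, which allows up to 0.877 CPM in the p21-high cells by the upper Poisson limit. *Cdkn1b* (p27) had 123 CPM against 106 CPM, a log2 ratio of 0.22 (0.08 to 0.35), and *Cdkn1c* (p57) had 26.4 CPM against 24.2 CPM with an interval across 0. *Cdkn2c* (p18) had 19.5 CPM against 13.8 CPM, a log2 ratio of 0.50 (0.15 to 0.84), and *Cdkn2d* (p19) 19.5 CPM against 16.9 CPM, both too low to be compared. None of the 2 inhibitors that could be compared reached 1.5-fold, where 3.56% of all compared genes were higher. Among 16 G1 cyclins, CDKs and RB proteins, 7 were compared and 1 was higher: *Rb1*, the retinoblastoma protein gene, had 32.3 CPM against 20.7 CPM, a log2 ratio of 0.64 (0.37 to 0.91). *Rb1* reached 25 CPM only in the p21-high cells, and at 25 CPM over all non-cycling cells 0 of 6 genes of the list were higher. *Ccnd1*, the cyclin D1 gene, had 1171 CPM against 1099 CPM, a log2 ratio of 0.09 (0.05 to 0.14). Of 19 regulators of *Cdkn1a* besides the targets, 11 were compared and *Klf6* was the 1 past 1.5-fold, with 93.7 CPM against 62.4 CPM.

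DNA replication genes were lower as a sum in the p21-high cells. The 32 S phase genes summed to 447 CPM (427 to 467) against 655 CPM (646 to 664), a log2 ratio of -0.55 (-0.62 to -0.48), and to 1334 CPM in cycling cells. The median log2 ratio over the 32 was -0.68, and the interval lay below 0 for 19 of them and above 0 for none. Only 5 could be compared and 2 were lower, where 1.71% of all compared genes were. Both of the 2 reached 25 CPM only in the other non-cycling cells, and so entered the comparison through the group where they were higher. Of these *Mcm2*, a subunit of the replicative helicase, had 11.2 CPM against 27.1 CPM, a log2 ratio of -1.28 (-1.73 to -0.85), and the histone chaperone gene *Nasp* had 17.8 CPM against 28.9 CPM. In thinned cells the list gave a median of 4 UMIs per p21-high cell against 7, and 14 in cycling cells. With every cell weighted alike the log2 ratio of the list was -0.38.

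Mitotic genes differed less. The 37 G2/M genes summed to 582 CPM (559 to 605) against 668 CPM (659 to 677), a log2 ratio of -0.20 (-0.26 to -0.14), and both were far below the 4258 CPM of cycling cells. With every cell weighted alike the sign turned, to 0.08, so the list gave no stable direction. Of 8 genes compared 3 were lower, where 1.71% of all compared genes were, namely the cyclin gene *Ccnb2*, the spindle gene *Tpx2* and the CDK subunit gene *Cks1b*, the last with 59.2 CPM against 92.3 CPM. *Tpx2* had a log2 ratio of -0.71 (-1.07 to -0.38) from summed UMIs and of -0.05 by the mean over cells. *Ckap2*, a spindle protein gene below the level for comparison and named here after its values were seen, was the 1 gene of the list with an interval above 0, at 22.1 CPM against 9.03 CPM. A UMI of at least 1 of *Cdk1*, *Ccnb1*, *Ccna2*, *Cenpf*, *Plk1* and *Birc5*, which the rule did not use, was found in 71 of 132 p21-high cells (53.8%), in 53.8% of the other non-cycling cells and in 89.0% of cycling cells. At 11500 UMIs the shares were 30.5% (22.4 to 39.7), 29.4% and 76.6%.

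The 15 genes with the largest ratios at 50 CPM or more held 6 of the p53 targets described above (*Trp53inp1*, *Mdm2*, *Btg2*, *Ercc5*, *Ak1* and *Phlda3*). Of the other 9, of which 8 are described, *Glipr1*, which encodes a CAP family protein, had 70.4 CPM (62.6 to 78.8) against 15.5 CPM (14.2 to 16.9), a log2 ratio of 2.18 (1.97 to 2.39). *Glipr1*, *Mxd4* and *Trp53inp1* were under 25 CPM over all non-cycling cells and entered the comparison through the p21-high cells alone. *Glipr1* was seen in 62 of 132 p21-high cells and 17.2% of the others, with at most 45 of its 296 UMIs in 1 cell. *Ptp4a3*, a phosphatase gene, had 64.4 CPM against 22.6 CPM, *Mxd4*, a MYC antagonist gene, 51.1 CPM against 20.3 CPM, and *Ano3*, an anoctamin gene, 52.5 CPM against 23.6 CPM. The AP-1 gene *Junb* had 162 CPM against 72.0 CPM. *Areg*, which encodes the EGF receptor ligand amphiregulin, had 69.6 CPM against 31.0 CPM.

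Another 2 genes held a large share of their UMIs in single cells. *Csrp2*, a LIM domain protein gene, had the largest ratio of all, 2.83, but 719 of its 897 UMIs came from 1 cell, and without that cell and the top cell of the contrast its log2 ratio was 0.54. *Ccl5*, a chemokine gene, had 229 of 554 UMIs in 1 cell, and its log2 ratio of 1.26 became 0.60 in the same way, 0.34 with 8 cycling genes and 0.45 without the deepest 10% of cells, the last values short of 1.5-fold. Of all compared genes, 9 had over 25% of their p21-high UMIs in 1 cell.

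**Figure D4:**
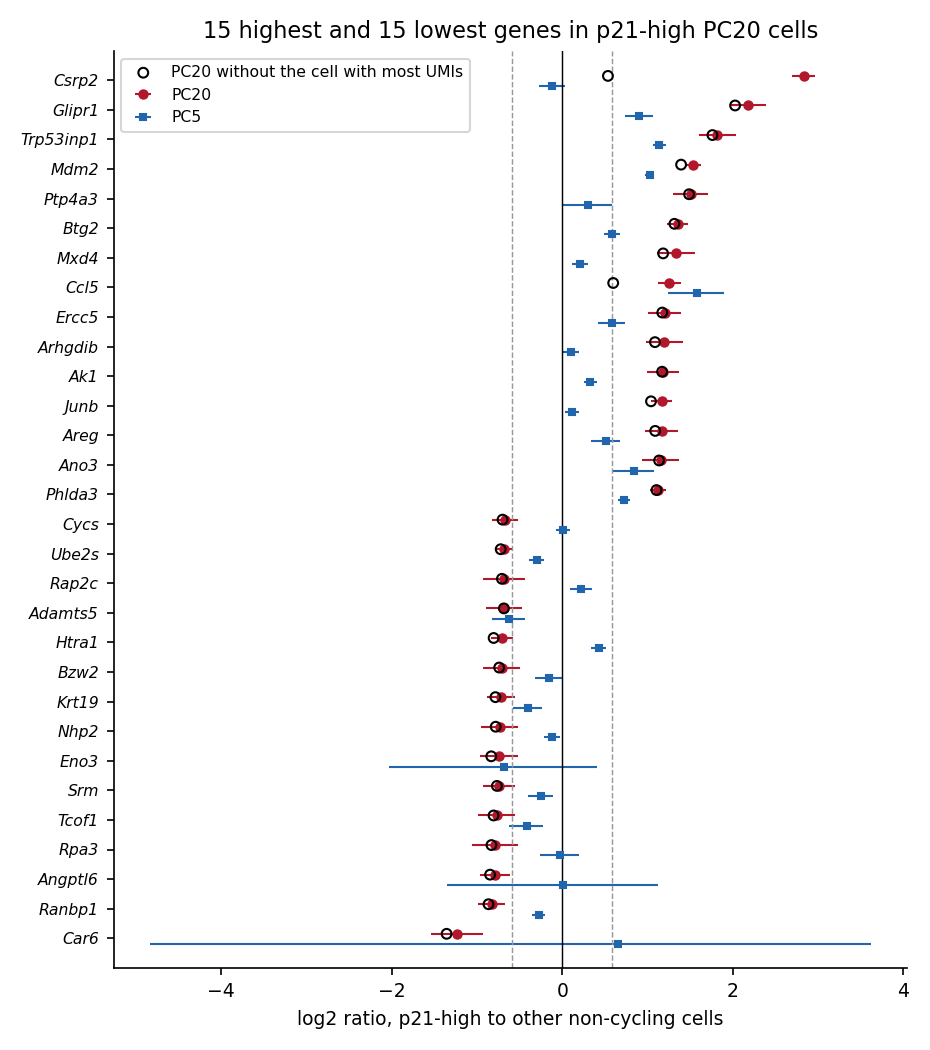
Log2 ratio of p21-high to other non-cycling cells (horizontal axis) for the 15 highest and 15 lowest PC20 genes at 50 CPM or more (vertical axis), in PC20 (red circles) and PC5 (blue squares), with 95% intervals for counting error and dashed lines at 1.5-fold. Open circles give PC20 without the cell of each group that held most UMIs of the gene: *Csrp2* moves from 2.83 to 0.54 and *Ccl5* from 1.26 to 0.60, while *Glipr1* stays at 2.03.

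The 15 lowest genes had smaller ratios, and 8 of them came short of 1.5-fold in at least 1 of 11 alternatives, *Ube2s* in 6. *Car6*, a secreted carbonic anhydrase gene, was lowest with 22.6 CPM (18.3 to 27.6) against 52.9 CPM (50.5 to 55.4), a log2 ratio of -1.23 (-1.54 to -0.93). *Ranbp1*, a Ran-binding protein gene, had 80.3 CPM against 143 CPM, the snoRNP gene *Nhp2* 45.4 CPM against 75.4 CPM, and *Tcof1*, a nucleolar factor gene, 46.6 CPM against 79.4 CPM. *Srm*, the spermidine synthase gene, had 62.8 CPM against 105 CPM. *Rpa3*, a subunit of the single-strand DNA binding complex, had 29.5 CPM against 50.8 CPM, and the ubiquitin-conjugating enzyme gene *Ube2s* 184 CPM against 295 CPM. *Cycs*, the cytochrome c gene, had 90.6 CPM against 144 CPM. The others were *Angptl6*, *Eno3*, *Krt19*, *Bzw2*, *Htra1*, *Adamts5* and *Rap2c*, with log2 ratios between -0.79 and -0.68.

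Inflammatory and growth factor target genes were higher in part, beside a median of -0.003 and a share of 3.56% higher over all compared genes. Of 10 NF-kB targets 4 were compared and 2 were higher, *Ccl5* and *Nfkbia*, the latter encoding the inhibitor of NF-kB, with 168 CPM against 82.2 CPM or 1.03 (0.91 to 1.15). The list summed to 630.1 CPM against 360.5 CPM, with a median log2 ratio of 0.67 over its 10 genes, but 393 of its UMIs were *Cxcl10* UMIs of 1 cell. Its summed log2 ratio of 0.81 ranged from 0.29 with 8 cycling genes to 1.36 with the top 5% of cells. Over the 10 parts by *Cdkn1a* share it had 508, 261 and 286 CPM in the lowest 3, where nearly all cells were at 0 for *Cdkn1a*, then 266, 331, 357, 440.4, 379, 406 and 630.1 CPM. The interferon-inducible chemokine gene *Cxcl10* had a log2 ratio of 1.36 from summed UMIs and of -2.85 without the top cell of each group, and was seen in too few cells to be compared. Of 10 TGF-beta and BMP targets 4 were compared and 3 were higher. *Id1* had 171 CPM against 110 CPM, *Id3* 187 CPM against 118 CPM, and *Smad7*, an inhibitor of the pathway, 61.3 CPM against 39.4 CPM. Summed, that list had 504 CPM (483 to 526) against 320.5 CPM (314 to 327), with a median log2 ratio of 0.64 over its 10 genes. Of 22 immediate-early and growth arrest genes 17 were compared and 3 were higher, *Junb*, the RNA-decay gene *Zfp36* (64.2 CPM against 36.8 CPM) and *Gadd45b* (77.7 CPM against 49.2 CPM). Its paralogue *Gadd45a*, a known p53 target outside the p53 list, was lower at 176 CPM against 262 CPM. Its interval lay below 0, and it did not reach 1.5-fold.

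Secretory genes linked to senescence gave 14 of 35 to compare, of which 4 were higher and 0 lower, with a median log2 ratio of 0.34 over the 14, where 3.56% of all compared genes were higher. *Areg* and *Ereg* are EGF receptor ligands, *Cxcl12* and *Ccl2* chemokines. *Ccl2* had a log2 ratio of 1.07 from summed UMIs and 0.26 without the top cells. At 25 CPM over all non-cycling cells, 1 of 11 was higher, against 102 of all 4477 genes. *Il6*, a cytokine gene widely used as a senescence marker, had 1 UMI in the p21-high cells. *Spp1*, the most abundant of the list, had 2155 CPM against 1727 CPM. Of 9 nuclear proteins lowered in senescence 5 were compared and 1 was lower, where 1.71% of all compared genes were lower, the DNA methyltransferase gene *Dnmt1*, with 27.1 CPM against 43.8 CPM. Lamin B1, encoded by *Lmnb1*, had 6.42 CPM against 13.2 CPM, below the level for comparison and named after its values were seen, and 53.7 CPM in cycling cells.

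Contractile and matrix genes differed in a few members, where 3.56% of all compared genes were higher. Of 20 SRF and YAP targets 15 were compared and 3 were higher, the matricellular gene *Cyr61* with 201 CPM against 127 CPM, *Ankrd1* with 161 CPM against 99.6 CPM and smooth muscle actin *Acta2* with 87.0 CPM against 57.2 CPM. *Acta2* was 0.61 on the log2 scale from summed UMIs, 0.12 by the mean over cells and 0.07 without the top cells, and no other smooth muscle marker could be compared. Of 21 matrix and adhesion genes 15 were compared and 3 were higher. These were *Col6a1* (54.2 CPM against 27.6 CPM), the basement membrane collagen gene *Col18a1* (119 CPM against 77.4 CPM) and the proteoglycan gene *Ogn* (176 CPM against 91.3 CPM). Of 16 lysosomal genes 13 were compared and 1 was higher, a count close to that background, the protease gene *Ctsb* with 438 CPM against 289 CPM.

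Protein folding genes of the endoplasmic reticulum were lower as a sum, with small ratios per gene, where 1.71% of all compared genes were called lower and 3.56% higher. The 14 chaperones had 7416 CPM (7334 to 7499) against 9350 CPM (9317 to 9382), a log2 ratio of -0.33 (-0.35 to -0.32), with 10 of 14 intervals below 0 and none above. *Hspa5* (BiP) had 2261 CPM against 3294 CPM, a log2 ratio of -0.54 (-0.57 to -0.51), the median over the list was -0.27, and *Sdf2l1* was the 1 gene past 1.5-fold, at 120 CPM against 188 CPM. The 31 genes of the ATF4 response had 29 to compare with none past 1.5-fold either way, and a log2 ratio of the sum of -0.17 (-0.19 to -0.15). The 14 NRF2 targets, 16 hypoxia genes and 12 interferon-stimulated genes also had none past 1.5-fold, with medians of 0.08, 0.05 and -0.02 over those compared. Their sums had log2 ratios of 0.15, -0.11 and 0.06, so the median and the sum differed in sign for the hypoxia and interferon genes. Of 10 heat shock proteins, *Hspb1* was higher (512 CPM against 318 CPM) and the mitochondrial chaperonin gene *Hspd1* lower (461 CPM against 714 CPM).

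**Figure D5:**
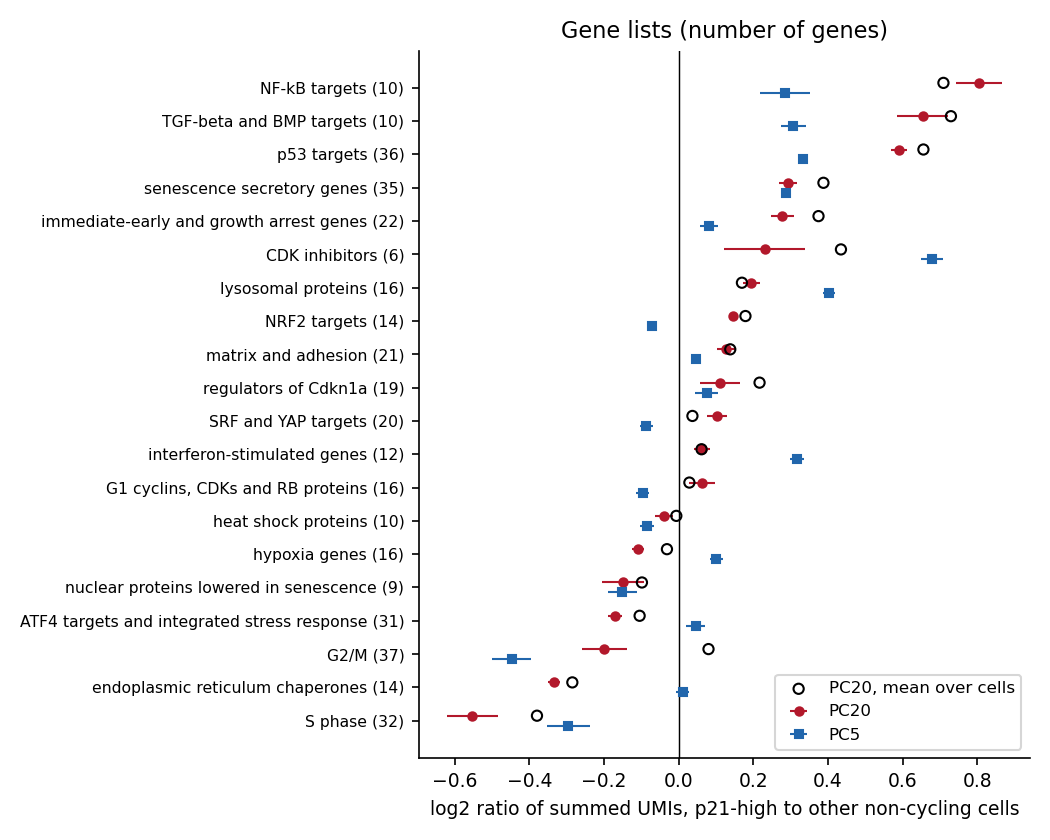
Log2 ratio of summed UMIs, p21-high to other non-cycling cells (horizontal axis), for 20 gene lists (vertical axis, number of genes in parentheses) in PC20 (red circles) and PC5 (blue squares), with 95% intervals for counting error. Open circles give PC20 with every cell weighted alike. The p53 targets stand at 0.59 in PC20 and 0.33 in PC5, the S phase list at -0.55 and -0.30, and the G2/M list changes sign in PC20 when cells are weighted alike.

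The same rule in the PC5 library, which had not been used to choose the PC20 cells, gave 547 of 5475 non-cycling cells. They had 1121 CPM of *Cdkn1a* against 369 CPM in the other 4928, so the other non-cycling cells of PC5 held more *Cdkn1a* than those of PC20. Their depth differed in the opposite direction, with a median of 15599 UMIs against 19636 in the contrast. Of 4847 genes compared in PC5, 133 were higher (2.74%) and 14 lower (0.289%), with a median log2 ratio of 0.07. Of the 3820 genes compared in both libraries, 137 were higher in PC20 (3.59%) and 69 in PC5 (1.81%). They had 21 in common, 15.3% of the PC20 genes and 30.4% of the PC5 genes. At 25 CPM over all non-cycling cells of each library, 84 and 46 of 3547 genes were higher (2.37% and 1.3%), and 9 were in common, among them the p53 targets *Mdm2*, *Phlda3* and *Psrc1*. Lower genes numbered 36 in PC20 (0.942%) and 8 in PC5 (0.209%), and 1, the aggrecanase gene *Adamts5*, was lower in both. Its PC20 log2 ratio of -0.68 became -0.20 with the top 20% of cells and -0.25 without the deepest 10% of cells, both short of 1.5-fold. No gene past 1.5-fold in 1 library was past it the other way in the other. With so small a share of genes past it in each library, this absence says little of agreement. Of the 137 genes, 114 (83.2%) had a positive ratio in PC5, where 62.8% of all genes compared in both did.

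Genes higher in both libraries included the p53 targets *Mdm2*, *Trp53inp1*, *Phlda3*, *Ddit4l* and *Psrc1*. Of the shared genes named in this paragraph, only *Mdm2*, *Phlda3*, *Psrc1* and *Col18a1* were also among the 9 in common at 25 CPM over all non-cycling cells of each library. In PC5 *Mdm2* had a log2 ratio of 1.02 (0.97 to 1.07), *Trp53inp1* of 1.14 (1.07 to 1.21) and *Phlda3* of 0.72 (0.65 to 0.79), below the PC20 ratios in each case. *Ddit4l* was about alike in the libraries, 1.19 (0.89 to 1.47) in PC20 and 1.28 (1.11 to 1.46) in PC5. *Glipr1* (0.90 in PC5), *Rb1* (0.91), *Nfkbia* (0.76) and *Col18a1* (0.74) were also among the 21. *Serpine2*, a secreted protease inhibitor gene named after its values were seen, had 29.2 CPM against 5.32 CPM in PC20 and 270 CPM against 136 CPM in PC5. The DNA repair gene *Mgmt*, named in the same way, was 0.94 in PC20 and 0.61 in PC5.

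Some patterns were seen in 1 library and not the other, and these differences were not tested. *Cdkn2a*, at 0 in PC20, had 992 CPM against 606 CPM in PC5, and *Cdkn2b* 119 CPM against 74.3 CPM, both past 1.5-fold. *Gadd45a* had a log2 ratio of -0.57 (-0.68 to -0.47) in PC20 and of 1.00 (0.80 to 1.19) in PC5. *Htra1*, a secreted serine protease gene, was -0.71 (-0.84 to -0.58) in PC20 and 0.43 (0.33 to 0.52) in PC5. *Acta2* was -0.51 (-0.66 to -0.36) in PC5, and in PC20 0.61 from summed UMIs but 0.07 without the top cells. *Gdf15*, at 419.5 CPM in PC20, had 1.80 CPM in the p21-high PC5 cells. *Junb*, *Id1* and *Id3* were within 1.5-fold in PC5, and the chaperone sum was 0.01 (-0.01 to 0.03).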

How the data were processed

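RNA of cultured mouse brain PCs was measured with droplet 3' single-cell RNA-seq, in 1 library at passage 5 and 1 at passage 20. The authors deposited a filtered matrix of UMI counts per library, made with Cell Ranger 5.0 per the submitters' processing notes (5.0.1 in the matrix header). The deposited counts were used as raw integers, with totals of 191306354 UMIs in PC20 and 223978480 in PC5. Per the study's methods reads were mapped to the mouse build mm10. Gene positions came from GENCODE M21 (GRCm38), in which 30934 of 31053 listed genes were found, and promoter sequences from RefSeq (GRCm38.p6), without chromosome 18.

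Barcodes were kept above 1000 genes and below 20% of UMIs from mitochondrial genes, and non-cycling cells were those without *Mki67* and *Top2a* UMIs. Doublets were not removed. UMIs were summed per group and scaled to a total of 1000000 to give CPM. Levels have exact Poisson intervals, log2 ratios exact conditional binomial intervals and shares Clopper-Pearson intervals, all at 95% and for counting error only. Amplified reads had been collapsed to UMIs, which bears on counting error and not on the spread between cultures. With 1 library per passage no significance test was made, and cells were not treated as replicates. Genes were compared at 25 CPM and a UMI in 10% of cells in the group where they were higher, without *Cdkn1a*, and called at 1.5-fold. Genes are named as the 15 with the largest and the 15 with the smallest ratio among those at 50 CPM with the same direction by the mean over cells, leaving out pseudogenes, unnamed gene models, ribosomal protein and mitochondrial genes. Members of the fixed lists with 25 CPM in either group are named too, and any other gene is said to have been chosen after its values were seen. A result for 1 gene named by this rule is not reported here. The cells and the 28 gene lists were chosen with earlier results of these data known. The procedure was tested on simulated counts. Calculations used Python 3.11.15 with numpy 2.4.6, scipy 1.17.1, pandas 2.3.3 and matplotlib 3.10.9.

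Alternatives were the share of cells taken, the cell filter, thinning, dividing the UMIs at random so that cells were chosen on 1 part and measured on the other, the library size, the weight of cells, 8 cycling genes in place of 2, the depth of the contrast, the level and the fold required, and centring. Filters over all non-cycling cells and the removal of the cells with most UMIs of a gene were added after the data were seen.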

Additional observations from a re-analysis of the deposited data

How the results depend on the processing

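With 169 genes higher and 81 lower at the settings used, the top 5% of cells by *Cdkn1a* share gave 311 and 212, and the top 20% gave 110 and 42. Calling cells non-cycling by 8 genes gave 272 and 175, a level of 10 CPM 357 and 216, a level of 100 CPM 33 and 19, and a 2-fold limit 29 and 2. The mean over cells gave 259 higher genes, and 25 CPM over all non-cycling cells, added after the data were seen, gave 102. Choosing cells on 1 part of their UMIs and measuring the other gave 132 lower genes, and leaving ribosomal protein and mitochondrial genes out of the library size 176. The p53 target list, at 0.59, gave 0.69 with the top 5%, 0.53 with the top 20%, 0.62 in thinned cells, 0.66 by the mean over cells, 0.55 with 8 cycling genes, 0.66 without the 10% of cells with the most UMIs and 0.56 against a contrast weighted to the same depth. The S phase list, at -0.55, gave -0.38 by the mean over cells, -0.48 without the deepest cells and -0.47 against the weighted contrast. The G2/M list, at -0.20, turned to 0.080 by the mean over cells and gave -0.057 in thinned cells, -0.29 with 8 cycling genes, and -0.13 both without the deepest cells and against the weighted contrast. The cause of these shifts was not tested. With 8 cycling genes the median depth of the p21-high cells was 23758 UMIs against 23799 in their contrast, the interferon-stimulated genes turned from 0.06 to -0.026 and the oligodendrocyte markers from 0.64 to -0.13. Genes higher in both libraries numbered 48 with the top 5%, 7 with the top 20%, 32 by the mean over cells and 9 at 25 CPM over all non-cycling cells of each library, an alternative added after the data were seen, and genes lower in both 4, 0 and 0, with 5 under the other library size. Of 660 other values for 60 named genes and p53 targets, 547 stayed within the counting interval and 11 had the other sign, in *Plk2*, *Plk3*, *Xpc*, *Tigar* and *Gdf15*. Of these only *Gdf15* had an interval off 0, and it turned from 0.58 to -0.17 with 8 cycling genes. Of the 18 p53 targets counted as higher, 15 stayed past 1.5-fold in each of 11 alternatives, and *Ei24*, *Tnfrsf10b* and *Slc19a2* did not.

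No paired analysis was possible because each passage has 1 library. Thinning and the mean over cells give no value for UMIs per cell. A p21-high group of 132 cells limits genes of low level, and intervals leave out the spread between cultures.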

Other observations

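A single p21-high PC20 cell held 719 of the 897 *Csrp2* UMIs and 143 of the 1250 *Mdm2* UMIs of the p21-high cells, and was examined after this was seen. It had 34297 UMIs, 3697 genes, 37 *Cdkn1a* UMIs and 0.426% mitochondrial UMIs. From the other non-cycling PC20 cells, 1.08 *Csrp2* and 4.14 *Mdm2* UMIs would be expected at its depth. Both genes lie on chromosome 10 (GRCm38), *Csrp2* at chr10:110919789-110939622 and *Mdm2* at chr10:117688875-117710758. Genes starting between 110 and 120 Mb of that chromosome gave 1001 UMIs in this cell where 77.4 were expected, and 139 where 72.1 were expected once *Csrp2* and *Mdm2* were set aside. *Rab21*, which lies between the 2 genes, gave 46 of these 139 UMIs, where 4.25 were expected. That stretch took 29186 CPM of the cell, against a median of 2212 and at most 7319 in any other non-cycling PC20 cell. The cell and the stretch were picked for *Csrp2* and *Mdm2*, which gave most of its UMIs, so a high share was fixed in advance. The share without these 2 genes was not compared with other cells. Other genes were high in the cell too, among them *Malat1*, a nuclear non-coding RNA, with 4806 UMIs where 464 were expected. Without this cell *Mdm2* had 265 CPM in the p21-high cells, a log2 ratio of 1.37. No cause of this pattern was tested.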
